A study of Rattus norvegicus with 6 samples.

Results

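The expression of 9 genes for enzymes of the tricarboxylic acid (TCA) cycle was examined in the myocardium of rats after ischemia and reperfusion (I/R). The genes were Cs, Idh2, Idh3a, Idh3b, Ogdh, Suclg1, Sucla2, Fh and Mdh2, and their rows were taken by gene symbol from a table of 28293 genes, of which 10942, all 9 included, passed a filter on low values. RNA sequencing had been performed on 3 sham samples and 3 I/R samples of rat myocardium, and the labels give all 6 the genotype WT. In the study's methods the rats were male, and I/R was made by tying off the left anterior descending branch of the coronary artery for 30 min and reopening it for 6 h. The sham labels carry the same times, and they name no drug, strain or age, nor the part of the heart that was taken. Because the labels number the samples without saying that each number is a separate animal, p-values measure the spread between these samples only.

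The TCA cycle runs in the mitochondrial matrix, where acetyl groups from fatty acids, glucose and other fuels are oxidized to carbon dioxide. The electrons are passed as NADH and FADH2 to the respiratory chain, which makes most of the ATP of the beating heart. Citrate synthase opens the cycle, the isocitrate and oxoglutarate dehydrogenases release carbon dioxide, succinyl-CoA ligase makes a nucleoside triphosphate directly, and fumarase and malate dehydrogenase regenerate oxaloacetate.

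The values are FPKM, fragments scaled to the length of the gene and the size of the library, so that levels of genes of different length can be set beside each other within a sample, while a comparison between samples depends on the scaling. The FPKM of all genes summed to between 894902 and 928941 in the sham samples and between 731063 and 825490 in the I/R samples, and the absolute depth is unknown. The 13 mRNAs encoded by mitochondrial DNA took 80.1% to 86.2% of this sum in the sham group and 61.8% to 71.5% in the I/R group. Cardiomyocyte markers were present in every sample. Of 10 markers, 9 were listed, none of them at 0 in all samples, and their summed level was 3656 to 11948 FPKM for sham and 24991 to 36339 FPKM for I/R. In bulk tissue, fewer cells of a type and less RNA per cell cannot be told apart.

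All 9 enzymes were higher in the I/R group and passed the test (limma on log2(FPKM + 0.1), Benjamini-Hochberg adjusted p under 0.05), with values below 0 for 7 of the 9, none of them called lower (adjusted p 0.16 to 0.79), when each sample was centred on its cardiomyocyte markers. That centring moved every gene alike and left 83.8% of all genes called lower, with a median of −2.07. The median of the 9 stood 1.64 above that of all genes on both scales. Since all genes moved alike, this gap could not change and is no separate result. Of all genes tested, 25.5% were called higher and 7.36% lower. Each enzyme was also higher in every I/R sample than in every sham sample, which held for 37.2% of the genes tested. The log2 fold changes ran from 1.70 for Cs to 2.77 for Idh2, with a median of 1.94 against 0.29 over all genes tested. Among the 3784 genes with a mean of at least 5 FPKM, a level that all 9 enzymes exceed, 50% were called higher and the median was 0.66. A two-sided exact permutation test gave p = 0.1 for each of the 9, the smallest value that 3 samples against 3 allow.

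Cs (ENSRNOG00000023520) encodes citrate synthase, which joins acetyl-CoA to oxaloacetate. Sham replicates 1 to 3 had 43.5, 29.2 and 25.1 FPKM of its transcript, and I/R replicates 1 to 3 had 171, 87.8 and 73.0 FPKM. The group means were 32.6 ± 9.68 FPKM for sham and 111 ± 52.9 FPKM for I/R (SD, n = 3 each, as for all means here). The log2 fold change of 1.70 ± 0.35 (SE, limma adjusted p = 0.0075) was the smallest among the 9 enzymes. I/R replicate 1 stood above the other I/R samples, and even the lowest I/R sample was 1.68 times the highest sham sample.

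Isocitrate is oxidized in the mitochondrion by an NADP-dependent enzyme, encoded by Idh2, and by an NAD-dependent enzyme of alpha, beta and gamma subunits. Idh2 (ENSRNOG00000013949) was measured at 73.5, 30.9 and 23.4 FPKM in the sham samples and at 461, 188 and 195 FPKM in the I/R samples. Its mean moved from 42.6 ± 27.0 to 281 ± 155 FPKM. With a log2 fold change of 2.77 ± 0.47 (SE, limma adjusted p = 0.0041), Idh2 had the largest rise of the 9, and 0.832% of the genes tested rose more. Idh3a (ENSRNOG00000010277), the catalytic alpha subunit of the NAD-dependent enzyme, was at 13.3, 6.49 and 5.90 FPKM in the sham samples and at 55.5, 30.3 and 25.9 FPKM in the I/R samples. Idh3b (ENSRNOG00000007316), the beta subunit, was at 52.3, 29.3 and 27.7 FPKM and at 193, 117 and 105 FPKM, respectively. The log2 fold changes were 2.13 ± 0.37 (SE, limma adjusted p = 0.0045) for Idh3a and 1.93 ± 0.33 (SE, limma adjusted p = 0.0042) for Idh3b. For Idh2, Idh3a and Idh3b the highest sham sample was replicate 1, and it stayed below the lowest I/R sample.

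Ogdh (ENSRNOG00000005130) encodes the E1 component of the oxoglutarate dehydrogenase complex, which turns 2-oxoglutarate into succinyl-CoA. The sham samples held 31.3, 20.9 and 14.4 FPKM, and the I/R samples 164, 63.6 and 48.0 FPKM. The means were 22.2 ± 8.53 and 91.9 ± 62.9 FPKM, and the log2 fold change was 1.91 ± 0.45 (SE, limma adjusted p = 0.012). Ogdh had the narrowest gap between the groups, its lowest I/R sample being 1.54 times its highest sham sample. It was also the one enzyme of the 9 that lost its call when a single sample was left out, with an adjusted p of 0.052 (limma) without sham replicate 2.

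Succinyl-CoA ligase pairs the alpha subunit encoded by Suclg1 with a beta subunit, either the ADP-forming one of Sucla2 or the GDP-forming one of Suclg2. Suclg1 (ENSRNOG00000005587) was at 91.8, 41.9 and 37.3 FPKM in the sham samples and at 301, 178 and 150.1 FPKM in the I/R samples. Sucla2 (ENSRNOG00000017481) was at 8.31, 7.66 and 5.64 FPKM and at 70.8, 23.8 and 22.1 FPKM. Their log2 fold changes were 1.94 ± 0.39 (SE, limma adjusted p = 0.0067) and 2.22 ± 0.41 (SE, limma adjusted p = 0.0054). The sham samples lay close together for Sucla2, with a coefficient of variation of 19.3%, whereas its I/R samples were spread more widely, since I/R replicate 1 was 3.08 times the mean of the other two.

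Fh (ENSRNOG00000003653), fumarase, hydrates fumarate to malate. It was at 72.7, 32.0 and 32.7 FPKM in the sham samples and at 208, 131 and 124 FPKM in the I/R samples, a log2 fold change of 1.82 ± 0.36 (SE, limma adjusted p = 0.0063). Mdh2 (ENSRNOG00000001440), the mitochondrial malate dehydrogenase, closes the cycle. It was the most abundant of the 9 transcripts in every sample, at 182, 78.7 and 66.1 FPKM in sham tissue and 891, 422 and 435 FPKM after I/R. Its log2 fold change of 2.48 ± 0.42 (SE, limma adjusted p = 0.0042) came second to that of Idh2.

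**Figure D1:**
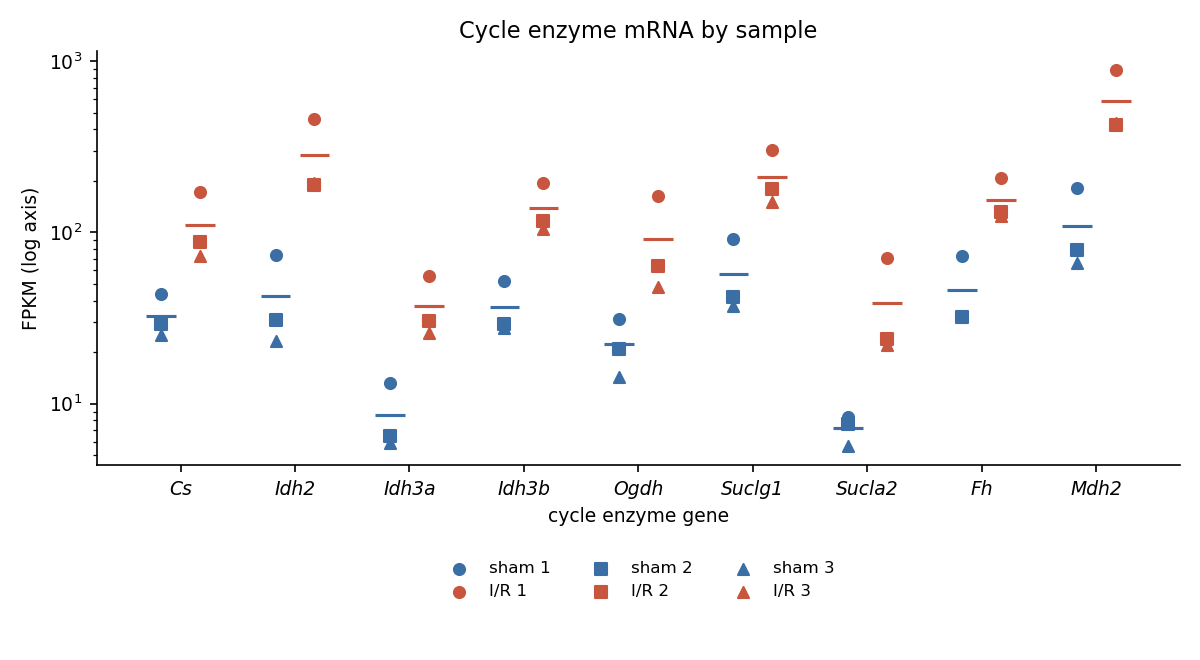
FPKM of the 9 TCA cycle enzyme genes (log axis) in each of the 3 sham and 3 I/R samples of rat myocardium, 1 point per sample with the mean of each group as a bar. Every I/R point lies above every sham point of the same gene, and replicate 1 is the highest point of both groups in all 9 genes.

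The plot of FPKM by sample shows a shared order of the samples. Sham replicate 1 was the highest sham sample for 9 of 9 enzymes, and I/R replicate 1 was the highest I/R sample for 9 of 9. Replicate 1 stood at 1.25 (Sucla2) to 2.71 (Idh2) times the mean of the other sham samples, and at 1.62 (Fh) to 3.08 (Sucla2) times the mean of the other I/R samples. The summed FPKM of the 9 genes was 569, 277 and 238 in the sham samples and 2515, 1242 and 1178 in the I/R samples. The summed cardiomyocyte markers were highest in the same libraries, at 11948, 4132 and 3656 FPKM in the sham samples and 36339, 25689 and 24991 FPKM in the I/R samples. Their part in this order was not tested. Mitochondrially encoded mRNAs took the smallest share of both groups in these libraries, 80.1% in sham replicate 1 and 61.8% in I/R replicate 1. The part of that share in the values was not tested beyond the rescaling given next.

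When each sample was rescaled over all genes other than the 13 mitochondrially encoded mRNAs, all 9 enzymes were again called higher, against 7.06% of all genes tested (limma, adjusted p under 0.05). The log2 fold changes on this scale ran from 0.92 for Cs (adjusted p = 0.024) to 1.99 for Idh2 (adjusted p = 0.0016), with a median of 1.15 where that of all genes was −0.48. The groups stayed apart for all 9, as they did for 11.4% of all genes. The lowest I/R sample then exceeded the highest sham sample by a factor of 1.17 (Ogdh) to 1.92 (Idh2). The 9 genes made up 0.316%, 0.208% and 0.185% of the FPKM that were not mitochondrially encoded in the sham samples and 0.901%, 0.518% and 0.5005% in the I/R samples.

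**Figure D2:**
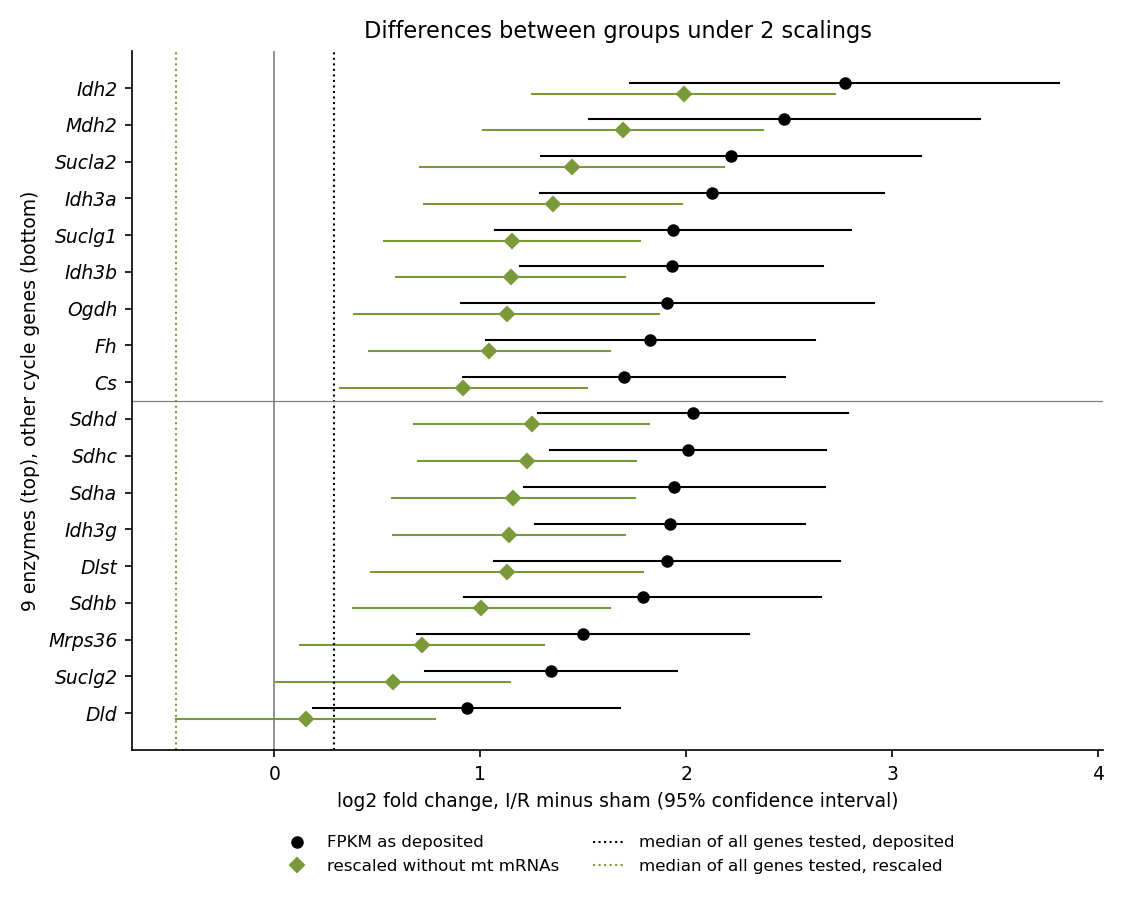
Log2 fold change (I/R minus sham) of the 9 enzymes and of 9 other cycle genes with its 95% confidence interval from limma, on FPKM as deposited and after rescaling without the mitochondrially encoded mRNAs, with the median of all genes tested as dotted lines. All 9 enzymes lie above 0 on both scales, with medians of 1.94 and 1.15, although on a scale that is not drawn, centred on cardiomyocyte markers, 7 of the 9 lay below 0 without being called lower, as 83.8% of all genes were.

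The calls also depended on the filter and on the scaling. Without the filter on low values, none of the 9 enzymes passed over the 28293 genes then tested (adjusted p 0.085 to 0.16, limma, with all 9 at an unadjusted p under 0.05 and 0.537% of all genes called higher), and under quantile normalization Cs, Ogdh, Suclg1 and Fh missed the threshold, where 13.2% of all genes were called higher.

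Reference sequence upstream of the start site was available from RefSeq (assembly GRCr8) for 8 of the 9 genes, all but Idh3a. The 250 bases before the start site are shown for the enzyme with the largest rise, Idh2 (chr1:143467249-143467498, minus strand), for the one with the smallest, Cs (chr7:1348139-1348388, plus strand), and for the most abundant, Mdh2 (chr12:26543842-26544091, minus strand). They are written 5′ to 3′ along the gene's strand, with capitals marking matches on either strand to the SP1 motif GGGCGG and the ETS/GABP motif CCGGAAG.
Idh2: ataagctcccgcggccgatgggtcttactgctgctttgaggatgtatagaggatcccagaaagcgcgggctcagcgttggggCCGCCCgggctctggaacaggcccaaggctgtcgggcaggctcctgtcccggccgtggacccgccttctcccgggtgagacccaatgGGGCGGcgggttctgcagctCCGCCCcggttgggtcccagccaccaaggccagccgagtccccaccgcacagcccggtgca
Cs: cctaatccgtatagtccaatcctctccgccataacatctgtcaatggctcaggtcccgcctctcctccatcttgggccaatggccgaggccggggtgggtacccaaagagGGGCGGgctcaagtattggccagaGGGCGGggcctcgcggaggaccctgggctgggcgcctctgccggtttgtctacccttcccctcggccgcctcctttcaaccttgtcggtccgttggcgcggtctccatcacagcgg
Mdh2: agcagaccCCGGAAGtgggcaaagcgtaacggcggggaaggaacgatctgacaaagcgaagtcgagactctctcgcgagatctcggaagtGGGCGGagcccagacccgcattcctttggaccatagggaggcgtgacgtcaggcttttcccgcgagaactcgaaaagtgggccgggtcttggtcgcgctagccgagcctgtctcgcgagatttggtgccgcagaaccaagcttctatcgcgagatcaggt
These positions belong to GRCr8 and not to the deposited table, whose build is not given in the sources used here.

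In windows from 250 bases before to 50 bases after the start, searched on both strands, GGGCGG occurred in 6 of the 8 genes (Cs, Fh, Idh2, Mdh2, Ogdh and Sucla2), as it did in 33.1% of 33469 rat promoters. CCGGAAG occurred in Idh3b and Mdh2, and in 8.75% of all promoters. The hypoxia element core ACGTG was found in Fh and Ogdh, and in 19.3% of all. No window of the 8 held the TATA box TATAAA (14.2% of all promoters), the ERR element TNAAGGTCA (1.2%), the NRF1 motif CGCATGCGC (1.52%) or the YY1 motif AAGATGGCG (1.73%), which says only that these letters are not in the windows. Suclg1 held none of the 7 motifs. The GC content lay between 50.3% (Idh3b) and 70.0% (Idh2) for the 8 genes, with a median of 51.7% over all promoters.

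The order of the levels was largely the same in both groups. From highest to lowest mean FPKM, it was Mdh2, Suclg1, Fh, Idh2, Idh3b, Cs, Ogdh, Idh3a and Sucla2 in the sham group, and Mdh2, Idh2, Suclg1, Fh, Idh3b, Cs, Ogdh, Sucla2 and Idh3a in the I/R group. Idh2 thus moved from the fourth to the second place. The ranges of neighbours in this order overlapped for 7 of 8 pairs in the sham group, where Ogdh and Idh3a were the exception, and for all 8 pairs in the I/R group. Within single samples the order was steadier, and 5 of the 8 pairs in the sham group and 7 of the 8 in the I/R group stood the same way in all 3 samples.

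Measured within each sample against the mean of the other 8 enzymes, which does not depend on the library total, Idh2 and Mdh2 were higher and Cs was lower in every I/R sample than in every sham sample. The relative log2 level of Idh2 went from 0.47 ± 0.31 to 1.22 ± 0.15, that of Mdh2 from 2.03 ± 0.22 to 2.45 ± 0.12, and that of Cs from 0.19 ± 0.21 to −0.25 ± 0.06. For each of these 3, the two-sided exact permutation test gave p = 0.1 (0.3 after adjustment over the 9). For the other 6 the groups overlapped. These relative levels balance out over the 9, so a rise in some forces a fall in others. Idh2 and Mdh2 also had the largest log2 fold changes and Cs the smallest, so the measure restates that order from the same values. The share of other genes that would separate in this way was not computed.

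Ratios were compared in the same way for 12 pairs of enzymes, most of which share a metabolite or a complex. The groups were separate for 4 of them, each at p = 0.1 in the two-sided exact permutation test and 0.3 after adjustment over the 12. The pairs are not independent, since genes such as Idh2 recur in them, and the share over other gene pairs was not computed. Idh2 exceeded Idh3a 4.66 times in the sham group and 7.28 times in the I/R group (geometric means). The ADP-forming subunit Sucla2 exceeded the GDP-forming Suclg2 1.49 times and 2.74 times, and Cs stood at 0.324 and 0.189 of Mdh2. The widest change was that of Idh2 over Idh1, its cytosolic counterpart. The log2 ratio was 2.93, 1.53 and 0.95 in the sham samples and 5.64, 5.01 and 5.71 in the I/R samples, geometric means of 3.49 and 43.8.

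In the other 8 pairs, which include subunits of a shared complex, the groups overlapped. The log2 ratio of Idh3b to Idh3g differed by 0.01 between the groups and that of Ogdh to Dlst, the E1 and E2 components of one complex, by 0.00 (two-sided exact permutation test, p = 1 for both). The first rested on single samples, being 0.21 without sham replicate 1 and −0.22 without sham replicate 2. For Suclg1 to Sucla2 the difference was −0.28 (p = 0.6, exact test), but 0.01 without sham replicate 1 and 0.26 without both libraries numbered 1, and for Mdh2 to the cytosolic Mdh1 it was −0.17 (p = 0.3). For Idh3a to Idh3b the difference was 0.20 (p = 0.2, exact test). Within same-numbered pairs it was 0.18, 0.21 and 0.20, the one overlapping ratio with the same sign in all 3 pairs, and an exact sign-flip test gave p = 0.25, the smallest that 3 pairs allow. With 3 samples a group, these values do not show that the ratios were equal.

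**Figure D3:**
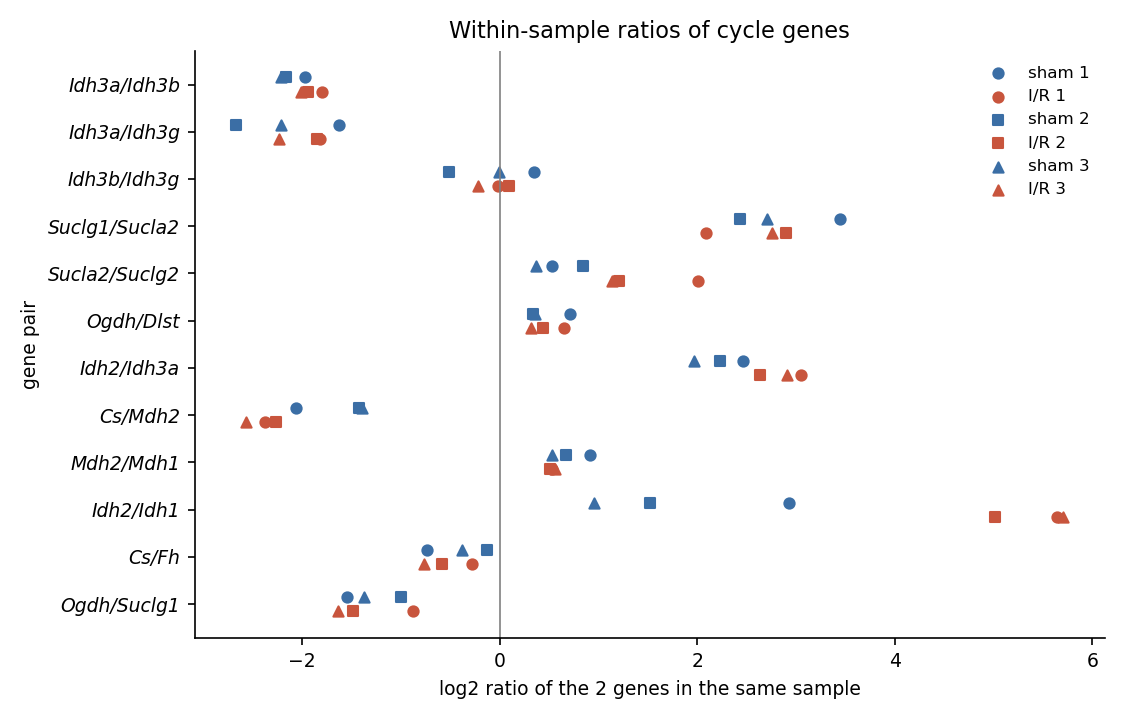
Log2 ratio of 2 cycle genes within each sample for 12 pairs, 1 point per sham or I/R sample. The I/R points of Idh2/Idh1, between 5.01 and 5.71, stand clear of the sham points, between 0.95 and 2.93, while Idh3b/Idh3g and Ogdh/Dlst overlap.

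The rise of the enzymes was next set against markers of the cell type that holds most of the heart's mitochondria. Of the 9 cardiomyocyte markers tested, 8 were called higher after I/R (limma). Their log2 fold changes ran from 0.82 (Ryr2, not called) to 3.79 (Actc1), with a median of 2.46. After rescaling without the mitochondrially encoded mRNAs 7 were called, with a median of 1.67 and Ryr2 at 0.05. How far single markers weigh in the mean of the 9 was not computed. Relative to the mean of these markers in the same sample, the mean log2 level of the enzymes was −3.27 ± 0.25 in the sham group and −3.54 ± 0.27 in the I/R group. The difference was −0.26, with p = 0.2 in a two-sided exact permutation test. Idh2 remained higher in every I/R sample, by 0.41, while Suclg1 and Fh were lower in every I/R sample, by −0.43 and −0.54. Over all genes tested, 0.42% lay above and 86% below in every I/R sample on this scale. Each of the 3 differences had an exact p of 0.1 (0.3 adjusted), and the groups overlapped for the other 6 enzymes.

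Against 72 nuclear genes of oxidative phosphorylation, the respiratory chain and ATP synthase subunits that the cycle feeds, the mean of the enzymes was higher. This mean log2 level was −1.44 ± 0.13 in the sham group and −0.95 ± 0.45 in the I/R group. The groups differed by 0.49 with no overlap (two-sided exact permutation test, p = 0.1). The lowest I/R sample was at −1.26 and the highest sham sample at −1.31. Without I/R replicate 1 the difference was 0.23, and without both libraries numbered 1 it was 0.17. Idh2 (1.16), Mdh2 (0.87), Idh3a (0.52), Suclg1 (0.33) and Fh (0.22) were separate between the groups, each with an exact p of 0.1 (0.18 adjusted over the 9). In the same direction, 1.94% of all genes tested were separate. The margins were narrow for Fh (lowest I/R sample −0.771, highest sham sample −0.776) and for Suclg1 (−0.499 and −0.521). For Cs, Idh3b, Ogdh and Sucla2 the groups overlapped. Of the 72 genes themselves, 61 were called higher and 0 lower, with a median log2 fold change of 1.58 (limma). With the replicate block 65 were called, adding Cox7a1, Cox7a2l2, Ndufa4l2 and Ndufb2 (adjusted p 0.00067, 0.041, 0.045 and 0.046), and after rescaling without the mitochondrially encoded mRNAs 38, with a median of 0.80.

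**Figure D4:**
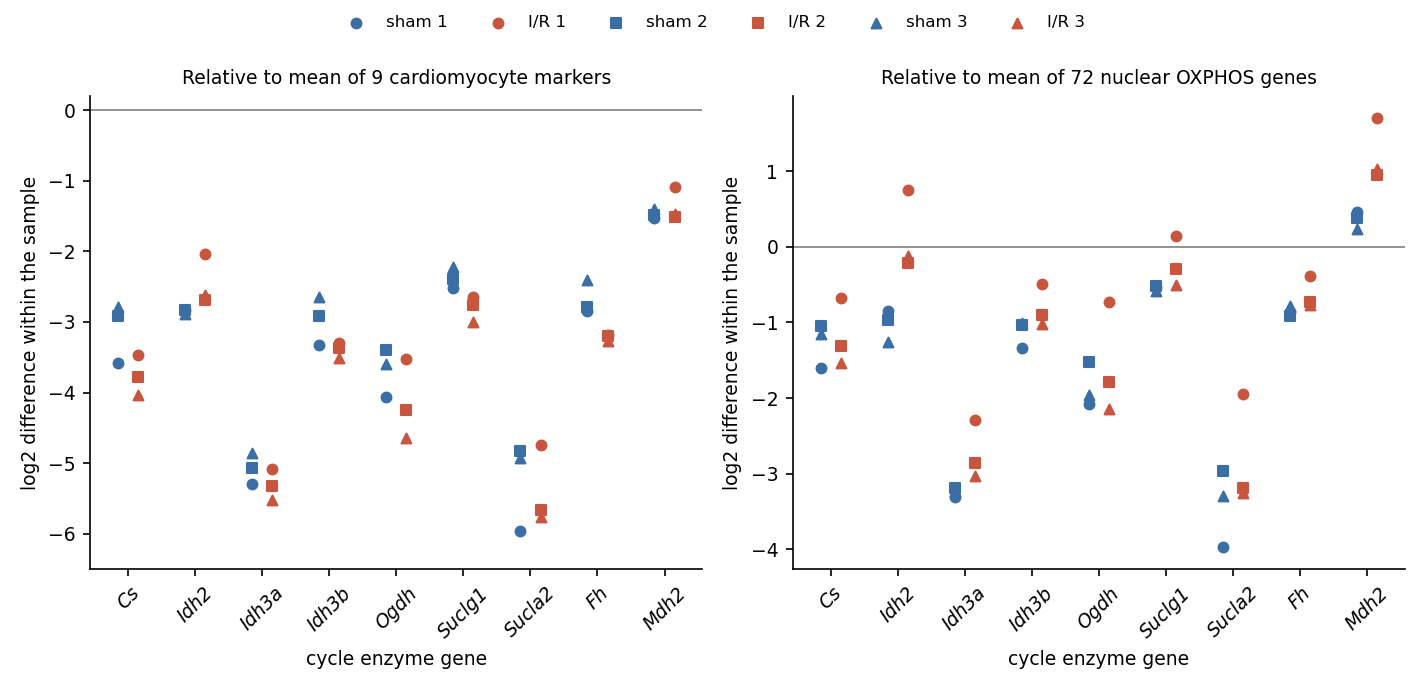
Log2 level of each of the 9 enzymes minus the mean of 9 cardiomyocyte markers (left) or of 72 nuclear oxidative phosphorylation genes (right) in the same sample, 1 point per sample. On the left the groups overlap for 6 enzymes, Idh2 is higher, and Suclg1 and Fh are lower in I/R. On the right 5 enzymes are higher in every I/R sample, Suclg1 and Fh by narrow margins.

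Markers of other cell types were read on both scales. On FPKM as deposited, of 7 fibroblast markers 2 were called higher, as were 3 of the 7 neutrophil and monocyte markers tested, and none of the 7 endothelial or 4 smooth muscle markers passed (limma, with 2 and 0 of them at an unadjusted p under 0.05), although the endothelial Kdr did with the replicate block (adjusted p = 0.045). After rescaling without the mitochondrially encoded mRNAs, 4 of the 7 endothelial markers (median log2 fold change −0.9995) and 2 of the 7 fibroblast markers were called lower, as were 25.9% of all genes, and 1 of the 7 neutrophil and monocyte markers was called higher. The summed level of the fibroblast markers was 420 to 581 FPKM for sham and 605 to 669 FPKM for I/R, and that of the endothelial markers 173 to 227 and 170.4 to 213 FPKM. The neutrophil and monocyte markers summed to 54.0 to 69.3 and 81.1 to 145 FPKM, and the smooth muscle markers to 57.3 to 252 and 79.4 to 285 FPKM. Of the 13 mitochondrially encoded mRNAs, 11 were lower in every I/R sample and 2 were called lower (limma), or 3 with the replicate block, which added Mt-nd5 (adjusted p = 0.033), and 9 after the rescaling. Their part in the values of the enzymes was not tested beyond that rescaling.

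The remaining cycle genes, a list of 10, were described beside the 9. In this list 9 genes were called higher and 0 lower on the deposited scale (limma), with a median log2 fold change of 1.91. The 4 subunits of succinate dehydrogenase, which is also complex II of the respiratory chain, were called at 1.94 (Sdha), 1.79 (Sdhb), 2.01 (Sdhc) and 2.03 (Sdhd). Idh3g, the gamma subunit of the NAD-dependent isocitrate dehydrogenase, was called at 1.92 and Dlst at 1.91. Mrps36, a small subunit of the oxoglutarate dehydrogenase complex, was called at 1.497, and Suclg2 at 1.34. Dld, the E3 component that this complex shares with pyruvate dehydrogenase, had 0.93 (limma adjusted p = 0.056) and passed with the replicate number as a block (adjusted p = 0.015). After rescaling without the mitochondrially encoded mRNAs, 7 of the 10 were called, and Mrps36 (0.72), Suclg2 (0.58) and Dld (0.15) were not. When centred on the cardiomyocyte markers, 0 were called higher (limma, 0 also at an unadjusted p under 0.05) and 1 lower.

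Pyruvate enters the cycle through a mitochondrial carrier and pyruvate dehydrogenase, whose kinases switch it off. Of 13 genes of this step, 9 were called higher and 0 lower (limma, median log2 fold change 1.62), and 7 and 0 after the rescaling (median 0.85). The largest were Pdhx, which tethers the E3 component in the complex, at 2.12, the kinase Pdk2 at 1.99 and the E1 beta subunit Pdhb at 1.93. Pdk4, a kinase induced by fasting and fatty acids and named here after its values were seen, was at 95.2, 126 and 38.4 FPKM in the sham samples and 96.4, 131 and 87.5 FPKM in the I/R samples. Its groups overlapped, with a log2 fold change of 0.42 (limma adjusted p = 0.45). Pdp2, a phosphatase of the complex, passed with the replicate block alone (adjusted p = 0.041).

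A list of 20 cycle-linked genes, the cytosolic counterparts, shuttles and enzymes that refill or drain the cycle, was more mixed. Of the 18 tested, 10 were called higher and 1 lower, with a median log2 fold change of 1.18. After rescaling without the mitochondrially encoded mRNAs 5 were higher and 3 lower (Pck2, Idh1 and Dhtkd1), with a median of 0.44. Mdh1, the cytosolic malate dehydrogenase of the malate-aspartate shuttle, rose most, from 96.5, 49.4 and 45.6 FPKM to 615, 297 and 294 FPKM (log2 fold change 2.65). Got1, the cytosolic aspartate aminotransferase of the same shuttle, was at 2.28, and the mitochondrial malic enzyme Me3 at 2.15. Pck2, the mitochondrial phosphoenolpyruvate carboxykinase, which draws on oxaloacetate, was the gene that fell. It was named after its values were seen, at 3.66, 5.84 and 5.06 FPKM in the sham samples and 1.80, 1.19 and 1.53 FPKM in the I/R samples (log2 fold change −1.62, limma adjusted p = 0.0035).

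Idh1, the cytosolic isocitrate dehydrogenase, was at 9.55, 10.7 and 12.0 FPKM in the sham samples and at 9.15, 5.72 and 3.63 FPKM in the I/R samples. Every I/R sample lay below every sham sample, as for 13% of all genes. The difference on the log2 scale was −0.88 (limma adjusted p = 0.058), and the gene passed as lower with the replicate block (adjusted p = 0.042). After rescaling without the mitochondrially encoded mRNAs the change was −1.68 (limma adjusted p = 0.0026). Glud1, glutamate dehydrogenase, also passed with the block, as higher (adjusted p = 0.049).

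**Figure D5:**
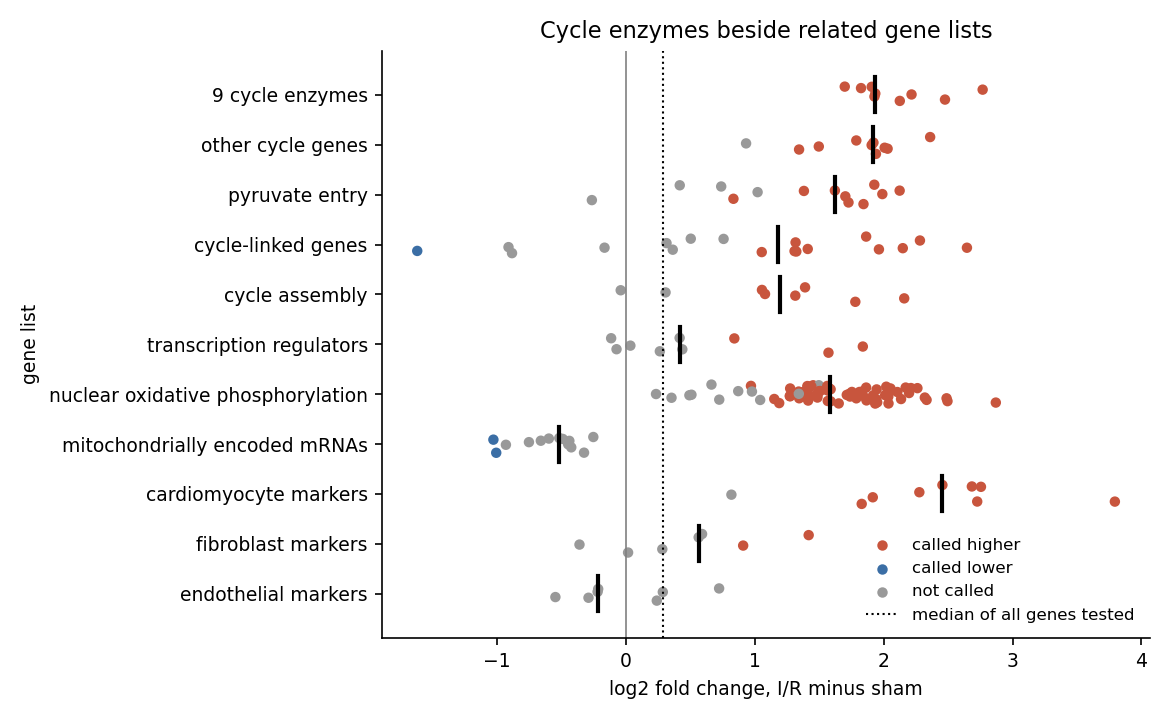
Log2 fold change (I/R minus sham, FPKM as deposited) of each tested gene in the cycle, oxidative phosphorylation, mitochondrially encoded and cell type marker lists, 1 point per gene coloured by its call, with the median of each list as a bar and that of all genes tested as a dotted line. The 9 enzymes (median 1.94) and the other cycle genes (1.91) lie highest among the cycle lists and the regulators lowest (0.42), and centring on cardiomyocyte markers, which moved all genes alike, put 7 of the 9 enzymes below 0 without a call.

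Factors that build the cycle enzymes' cofactors and subunits were called higher in 6 of the 8 tested and lower in 0 (median log2 fold change 1.20, limma). Sdhaf3, an assembly factor of succinate dehydrogenase, was at 2.16, the lipoic acid synthase Lias at 1.78 and Sdhaf2 at 1.39. On the scale without mitochondrially encoded mRNAs, 2 were called, Sdhaf3 and Lias, with a list median of 0.42, while Sdhaf2 was at 0.64 (limma adjusted p = 0.12). Of 12 transcription regulators of mitochondrial genes, 9 passed the filter and 3 were called higher. These were the coactivator Ppargc1a at 1.84, the fatty acid sensor Ppard at 1.57 and Tfam, which binds mitochondrial DNA and is needed for its transcription, at 0.84. After the rescaling Tfam was at 0.07 (limma adjusted p = 0.87) and was not called, and the median of the regulators turned from 0.42 to −0.32. Ppargc1a was at 0.813, 1.05 and 0.568 FPKM in the sham samples and 2.68, 3.80 and 2.88 FPKM in the I/R samples, so that, unlike for the 9 enzymes, replicate 1 was not the highest sample of either group. The estrogen-related receptors Esrra, Esrrb and Esrrg were below the filter.

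The genes outside these lists whose log2 level most resembled the mean of the 9 enzymes across the 6 samples were Acta1, Ociad1, Ywhag, Gpi, Alkbh3 and Hras, with Pearson correlations of 0.9990 to 0.9997. Acta1, the skeletal muscle alpha-actin also made in the heart, was at 121.5, 48.5 and 40.1 FPKM in the sham samples and at 922, 357 and 298 FPKM in the I/R samples. Gpi, a glycolytic enzyme, was at 65.9, 39.9 and 36.004 FPKM and at 179.8, 109 and 100.3 FPKM. Such a likeness was common, since 913 of 3625 genes compared had a correlation above 0.95, and the points share their libraries.

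RefSeq lists 5 pseudogenes named after Cs, Idh3b, Fh and Mdh2, and copies under other names were not searched for. None of the 5 symbols is in the deposited table, where 7092 of 30452 rows carry no symbol. How fragments shared with such copies were assigned is not stated, so the levels of these 4 genes are uncertain to that extent.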

How the data were processed

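RNA of 3 sham and 3 I/R myocardium samples was sequenced from stranded total RNA libraries. The authors deposited FPKM values per gene and sample in 1 table. The submitters' processing notes name STAR and HTSeq without version or role, and the genome build and annotation are not given in the sources used here. Rows sharing a symbol were summed. Columns were matched to samples by name.

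Log2(FPKM + 0.1) was fitted over the 10942 genes whose mean reached 0.5 FPKM using limma 3.58.1 (R 4.3.3, eBayes with trend), with Benjamini-Hochberg adjustment and a call at an adjusted p under 0.05. A fold change on this scale understates that of low genes. Single values were compared by two-sided exact permutation tests. The script was tested on simulated data. FPKM hold no counts. Low values move in whole steps, which put the depth at 0.873 to 1.18 of that of sham replicate 1, so no interval for counting error was computed.

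Deviations of same-numbered sham and I/R samples correlated at 0.203, 0.117 and 0.118 over genes, each above 0.1, so a block on the number was fitted too. Sham replicate 3 and I/R replicate 2 reached 0.12, so the correlations do not show that the numbers pair the samples. The pairing comes from the labels' replicate numbers alone, and every blocked or within-pair value rests on it. The fit without the block, set as the main one, is reported, and the blocked value where it changes a call.

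The members, lists and tests were chosen with earlier results of these data known. Every member and 9 of the 10 other cycle genes are named (1 is not reported here), with the 3 genes of largest absolute log2 fold change in each further list and the 6 genes most like the members (mean FPKM of at least 5). Pdk4, Pck2, Dhtkd1, Idh1 and the genes whose call the block changed were named after their values were seen. Of the red blood cell markers 2 and of the adipocyte markers 1 were tested, and 0 of them were called. Alternatives were 18 planned settings and, added after seeing the data, 2 further settings and the differences of ratios within pairs.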

Additional observations from a re-analysis of the deposited data

How the results depend on the processing

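Under the alternatives other than those named next, the 9 enzymes stayed higher and called. With each sample left out in turn, 8 to 9 were called, with a median log2 fold change of 1.66 to 2.33, and 8 to 10 other cycle genes. Without the filter on low values 0 of the 9 enzymes and 0 of the 10 other cycle genes were called (9 and 9 at an unadjusted p under 0.05), where 152 genes in all were called higher and 47 lower (limma). Quantile normalization left 5 enzymes called, against 13.2% of all genes called higher, with a median of 1.01 and adjusted p-values of 0.068 for Cs, 0.077 for Ogdh, 0.053 for Suclg1 and 0.05 for Fh. Rescaling without the mitochondrially encoded mRNAs gave a median of 1.15, with or without the replicate block. Centring on the cardiomyocyte markers gave 0 calls among the 9 enzymes (limma, 0 also at an unadjusted p under 0.05), where 83.8% of all genes were called lower and 0.311% higher, a median of −0.43 and 0 other cycle genes called higher, with Cs at −0.66, Idh3a at −0.24, Idh3b at −0.43, Ogdh at −0.45, Suclg1 at −0.43, Sucla2 at −0.15 and Fh at −0.54. The cause of these changes was not tested.

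Scalings moved the median of all genes from 0.29 to 0.48 (TPM), −0.48 (without mitochondrially encoded mRNAs), 0.04 (centred on the median), −0.02 (quantile) and −2.07 (cardiomyocyte markers). Relative to it, the median of the 9 enzymes was 1.64 as deposited, 1.65, 1.63, 1.64, 1.03 and 1.64, respectively. All of these scalings but the quantile one move every gene of a sample alike, apart from the pseudocount. Their near-equal gaps were therefore fixed in advance and say nothing of stability. Of all calls, 77.6% were higher as deposited, against 87.3%, 21.4%, 56.5%, 48% and 0.369% in that order, and 91.9% with a mean of at least 5 FPKM.

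With the replicate block, which assumes that the numbers pair the samples, all 9 enzymes were called (adjusted p at most 0.00038, limma). So were 10 of the 10 other cycle genes. Of the listed genes, the block changed no call beyond those given above with their blocked values.

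Without both libraries numbered 1, a setting added after seeing the data, the mean of the enzymes relative to cardiomyocyte markers was −0.56 in place of −0.26. Relative to the oxidative phosphorylation genes it was 0.17 in place of 0.49. The ratios were then separate for 8 of 12, a count that cannot be set against the 4 of all samples, since groups of 2 separate more easily than groups of 3. Leaving out single samples gave −0.42 to −0.15 for the mean relative to the markers, 0.23 to 0.65 relative to the oxidative phosphorylation genes and 4 to 5 separate ratios. FPKM without counts leave the depth behind each value unknown, and 3 samples a group limit an exact test to p = 0.1.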
